A study of Homo sapiens with 21 samples.

Results

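The RNA of 2 human lung adenocarcinoma cell lines, HCC827 and PC9, was compared without any EGFR inhibitor. By their labels, 8 of the 21 RNA-seq libraries of the series are drug-free libraries of these lines, 4 of each, and all 8 were used, joined by gene identifier. Each line is present as parental cells and as cells carrying a lentivirus for a scrambled control, for miR-147b or for miR-21. The transduced cells of both lines were selected with puromycin, and parental cells received neither virus nor puromycin. Both lines are labelled EGFR mutant and negative for the T790M resistance mutation, and their parental cells as sensitive to gefitinib and osimertinib. The labels describe plain culture in DMEM with serum and also organoid culture, without saying which of the 2 gave a library. RNA was taken with a mirVana kit and made into TruSeq mRNA libraries.

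There is 1 library for each line and state, and the labels do not name separate cultures. With the state as a block, the p-values of the line difference therefore measure how far it varies over the 4 states. Part of this spread may be technical, and each line stands for itself alone. A further comparison used the 4 drug-tolerant libraries, 2 of each line, from cells that had been kept for 14 days in gefitinib (40 nM) or in osimertinib (20 nM).

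EGFR is a receptor tyrosine kinase whose mutant forms signal without ligand and drive a class of lung adenocarcinoma. HCC827 is a line known for carrying many copies of EGFR, and DNA copy number was not measured here. Interferon-stimulated genes encode antiviral proteins such as the ubiquitin-like ISG15. They are switched on by a complex that holds IRF9 and STAT2 and binds a promoter element called ISRE, and cancer cells can keep them active without infection. Lung adenocarcinoma cells can also keep the programme of the alveolar cell, set by the transcription factor NKX2-1, or carry keratins of the basal airway cell.

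Promoter stretches of 5 interferon-stimulated genes are shown because nearly all tested members of this gene group were higher in HCC827. They come from RefSeq (GRCh38.p14), are written 5′ to 3′ on the gene's strand, lie upstream of the annotated start, and have each match to the ISRE letters in capitals. A match is GAAA, any 2 bases and GAAA, or the reverse complement of this, TTTC, any 2 bases and TTTC.
ISG15, chr1:1013364-1013423, plus strand: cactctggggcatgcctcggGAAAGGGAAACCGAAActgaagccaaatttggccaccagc
IFIT1, chr10:89392487-89392546, plus strand: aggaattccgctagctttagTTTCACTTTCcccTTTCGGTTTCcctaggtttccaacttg
IFIT3, chr10:89327821-89327889, plus strand: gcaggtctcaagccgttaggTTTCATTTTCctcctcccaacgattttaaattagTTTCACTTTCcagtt
IFI27, chr14:94110608-94110667, plus strand: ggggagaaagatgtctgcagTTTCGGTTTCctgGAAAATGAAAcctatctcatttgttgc
BST2, chr19:17405721-17405780, minus strand: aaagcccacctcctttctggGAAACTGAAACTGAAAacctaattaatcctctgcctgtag
In ISG15 and BST2 a pair of overlapping matches forms 1 run of capitals, IFIT1 and IFIT3 hold 2 separate matches on the reverse strand, and IFI27 holds 1 on each strand. Of the 29 interferon-stimulated genes with a promoter in the table, 20 (69.0%) held a match within 250 bases before to 50 bases after the start, against 1255 of 35116 promoters (3.57%). Among genes for interferon sensing and signalling 3 of 19 held one (15.8%). A match is a stretch of letters, and binding was not measured.

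The 8 libraries held 16679299 to 29694050 expected counts (median 22045038), and levels below are counts scaled to a common library total (CPM), listed by library in the order parental, scrambled, miR-147b, miR-21. Log2 differences are HCC827 over PC9. The value after ± is an approximate standard error (SE), the size of the log2 difference divided by the square root of the test's F statistic. The parental libraries stood apart. On the log2 CPM scale the 3 transduced libraries of a line correlated at 0.985 to 0.988 with each other across genes, and the parental library correlated with them at 0.959 to 0.962 in HCC827 and at 0.962 to 0.972 in PC9. The parental libraries are also deposited in another table than the transduced ones, so virus, puromycin, table and any batch of parental cells cannot be told apart. Results are therefore also given for the 3 transduced states alone.

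Between HCC827 and PC9, 9253 of 17008 genes tested passed (54.4%), 4636 higher in HCC827 (27.3%) and 4617 lower (27.1%), by edgeR's quasi-likelihood test with the state as a block and an adjusted p under 0.05. Since so many genes passed, a second test asked for a difference of more than 2-fold, and 3555 genes passed it (20.9%), 1855 higher (10.9%) and 1700 lower (10.0%). The middle 90% of all log2 differences lay between -2.89 and 2.99, with a median of 0.01. Of the 9253 genes, 9060 (97.9%) had the same sign in all 4 states. In the transduced states alone 11734 of 17059 genes passed (68.8%), among them 9132 of the 9253 and 3545 of the 3555 with the same sign.

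**Figure D1:**
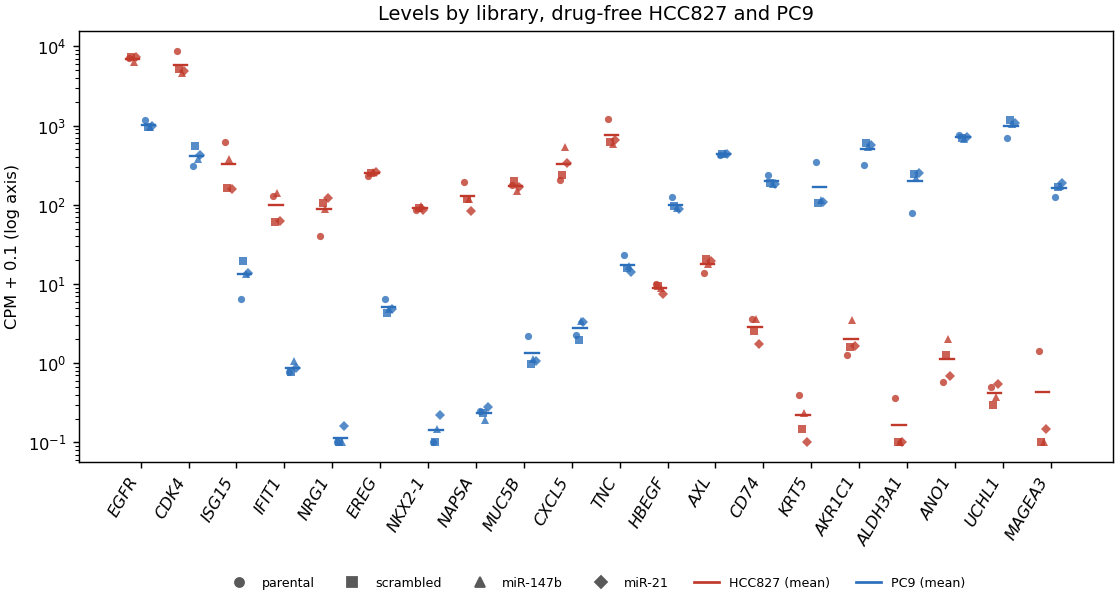
Levels of genes named below in each of the 8 drug-free libraries on a log axis of CPM + 0.1, HCC827 in red on the left and PC9 in blue on the right of each gene, with a marker shape for each state and a bar at the mean. For every gene plotted the libraries of the 2 lines are apart, the genes from EGFR to TNC higher in HCC827 and those from HBEGF to MAGEA3 higher in PC9.

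EGFR and nearly all of its neighbours on chromosome 7 were higher in HCC827. EGFR had 7035, 7352, 6343 and 7271 CPM in HCC827, against 1178, 956, 958 and 987 CPM in PC9, and averaged 7000 ± 458 CPM in HCC827 and 1020 ± 106 CPM in PC9 (SD, n = 4 each). Its log2 difference was 2.74 ± 0.11, adjusted p = 2.58e-05, and 2.81 in the transduced states alone. The lowest HCC827 library lay above the highest PC9 library, so the marker named for this comparison separates the lines in every state.

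EGFR lies at chr7:55019021-55211628 (GRCh38, GENCODE 29, matched by identifier because the counts were made on GRCh37). Within 1 Mb of it, 13 other gene entries were tested, 12 were higher in HCC827 and 1 was lower, with a median log2 difference of 1.91. SEC61G, a subunit of the channel that takes proteins into the endoplasmic reticulum, had 2152, 1639, 1834 and 1787 CPM in HCC827, against 87.9, 92.7, 102 and 104 CPM in PC9. VOPP1, a gene also called ECOP for being amplified together with EGFR in tumours, had 2617, 2455, 2193 and 2536 CPM in HCC827, against 233, 243, 233 and 227 CPM in PC9. LANCL2, a LanC-like protein next to EGFR, had 821, 598, 515 and 607 CPM in HCC827, against 72.1, 70.2, 75.2 and 80.0 CPM in PC9. All 3 differed more in log2 terms than EGFR itself, at 4.22, 3.35 and 3.04. Farther out the differences did not fall steadily with distance. They were 2.70 for ZNF713, 3.16 and 1.91 for the 2 entries of the mitochondrial ribosomal protein MRPS17, 1.39 for the chaperonin subunit CCT6A, 2.40 for the phosphorylase kinase chain PHKG1 and 1.13 for the mitochondrial protein CHCHD2, whose adjusted p lay at 0.0512 and 0.0528 without the miR-147b library of HCC827 or PC9. The exception was SEPT14, a testis septin with at most 2.12 CPM in any library, which was lower in HCC827 (log2 difference -0.95, adjusted p = 0.0332) and did not pass in the transduced states alone (adjusted p = 0.0673) or when any 1 library was left out (adjusted p = 0.0623 to 0.0975).

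A second block of genes stood out on chromosome 12 around CDK4, the kinase that takes cells through G1 with cyclin D. The genes of this block other than CDK4 and those of the runs below were named after their values were seen. CDK4 had 8788, 5229, 4618 and 4948 CPM in HCC827, against 312, 547, 384 and 421 CPM in PC9, a log2 difference of 3.76 ± 0.29 (adjusted p = 1.68e-04), and 3.43 in the transduced states. OS9, a lectin of endoplasmic reticulum quality control, had 2622, 2929, 2921 and 2777 CPM in HCC827, against 75.1, 90.5, 85.1 and 83.2 CPM in PC9, and PIP4K2C, a lipid kinase, had 2209, 1059, 1105 and 911 CPM in HCC827, against 54.5, 63.9, 59.4 and 62.4 CPM in PC9. No library of PC9 reached a level of HCC827 for any of the 3. Their neighbours DTX3, ARHGEF25, AGAP2 and TSPAN31 were also higher, by 3.60, 2.86, 5.49 and 2.73 in log2 terms. The step at the edges was steep: DCTN2 on one side differed by 0.89 and MARCH9 on the other by 0.53, with adjusted p from 0.0510 to 0.127 when the miR-147b or miR-21 library of either line was left out. Inside the block B4GALNT1 was lower in HCC827 (-1.36), and so was CYP27B1, which makes active vitamin D, just beyond MARCH9 (-1.66).

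**Figure D2:**
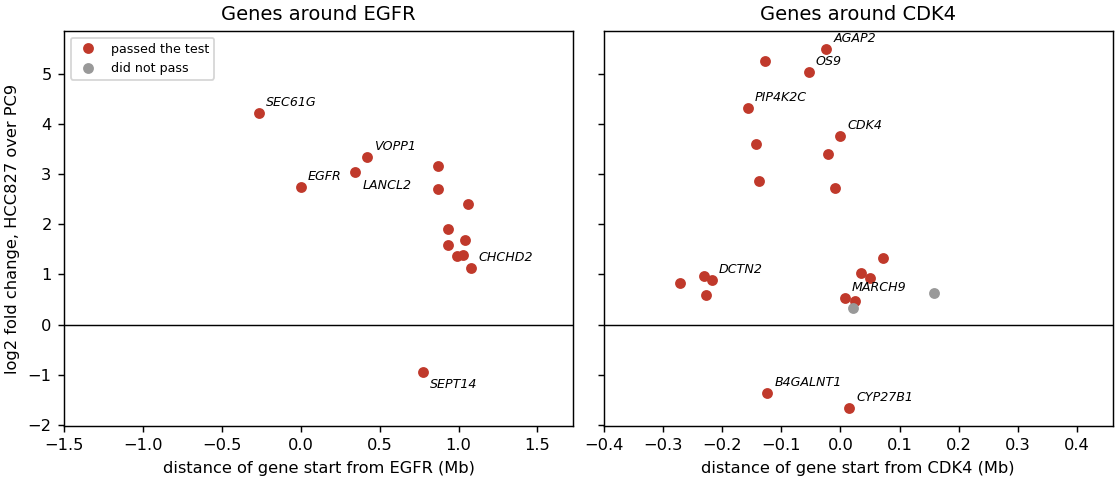
Log2 difference of HCC827 over PC9 (vertical axis) of the genes around EGFR (left) and CDK4 (right) against the distance of their starts in Mb (horizontal axis), each point 1 gene, red where it passed the test and grey where it did not. SEC61G at 4.22, VOPP1 at 3.35 and LANCL2 at 3.04 lie above EGFR at 2.74, and all named genes from PIP4K2C to CDK4 except B4GALNT1 lie far above DCTN2 and MARCH9 at the edges of the block.

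Whole stretches of other chromosomes leaned one way too. Windows of 11 consecutive tested protein-coding genes, 13686 genes in all, gave 17 runs in which a window's median log2 difference was at least 2 in size. Runs were picked on these same differences, so the counts and medians within them describe the runs and are no test of them. The run with EGFR went from SUN3 to KCTD7, with 30 of 36 genes higher and 2 lower. The longest went from PDE7A to ZFAND1 on chromosome 8 (chr8:65717510-81732903, GRCh38), with 44 of 52 genes higher in HCC827, 1 lower and a median of 2.23. It holds MYBL1, a transcription factor of germ cells, with 115, 191, 184 and 231 CPM in HCC827, against 8.86, 8.30, 10.1 and 10.4 CPM in PC9, COPS5, the catalytic subunit of the COP9 signalosome, with a log2 difference of 2.67, and RPL7, a ribosomal protein, with 2.86.

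On chromosome 14, 3 runs (GALC to C14orf159, C14orf142 to PAPOLA, and SETD3 to HSP90AA1) had 16 of 17, 19 of 21 and 13 of 17 genes higher in HCC827. On chromosome 5 the protocadherin clusters, cell adhesion genes used in different sets by different cells, gave a run of 33 genes with 24 higher and 3 lower. PCDHA11 had 18.3, 11.1, 10.1 and 9.25 CPM in HCC827, against 0, 0, 0 and 0.121 CPM in PC9, and PCDHGC3 had 21.6, 19.6, 21.5 and 21.1 CPM in HCC827, against 6.49, 4.82, 4.42 and 4.67 CPM in PC9. Protocadherins share exons and near-identical stretches, so counts of single members are uncertain. Of the 17 runs 9 leaned toward HCC827, with 11 to 52 genes each, and 8 toward PC9, with 11 to 18 genes each. Those toward PC9 include HTATSF1 to CXorf40B on chromosome X with 9 of 18 genes lower in HCC827 and 3 higher, SPRR1A to S100A14 on chromosome 1 with 8 of 15 lower and none higher, AKR1E2 to FBXO18 on chromosome 10 with 11 of 12 lower, and CD40 to PREX1 on chromosome 20 with 6 of 11 lower and 1 higher. Over whole chromosomes, 70.8% of 809 genes on chromosome 17 and 68.0% of 463 on chromosome 14 had a positive difference, against 34.8% of 774 on chromosome 3 and 36.1% of 606 on chromosome 5.

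Interferon-stimulated genes, the effectors of the antiviral response, were nearly all higher in HCC827. Of 36 measured members 35 were tested, 31 were higher in HCC827 and none was lower, beside 27.3% and 27.1% of all genes. By the second test 27 of the 35 were higher by more than 2-fold, beside 10.9%. Their median log2 difference was 3.23, against 0.01 over all genes, and in the transduced states alone the counts were again 31 and 0. Lists were written with earlier results of these data known, so these counts describe the list and are no independent evidence of its direction. In bulk RNA, fewer cells expressing these genes and less RNA of them per cell cannot be told apart.

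ISG15 had 619, 164, 374 and 158 CPM in HCC827, against 6.34, 19.2, 13.4 and 13.5 CPM in PC9, and averaged 329 ± 218 CPM in HCC827 and 13.1 ± 5.26 CPM in PC9 (SD, n = 4 each). The log2 difference was 4.42 ± 0.64, adjusted p = 0.00176, and the lowest HCC827 library lay above the highest of PC9. ISG15 differed more in parental than in transduced cells, by a log2 of 2.80 (adjusted p = 0.0239), and its difference in the transduced states alone was 3.77. Without the scrambled library of PC9 the adjusted p of the first was 0.0512.

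IFIT1, which binds viral RNA that lacks a host cap mark, had 129, 59.8, 142 and 62.0 CPM in HCC827, against 0.667, 0.666, 0.974 and 0.779 CPM in PC9. IFI27, an interferon-induced mitochondrial protein, had 309, 135, 360.0 and 134 CPM in HCC827, against 0.159, 0.298, 0.291 and 0 CPM in PC9. Each PC9 library held under 1 CPM of both genes, so their log2 differences of 6.90 ± 0.27 and 10.19 ± 0.43 rest on few counts on the PC9 side. IFI44L, an interferon-induced gene of poorly known function, had 138, 50.1, 158 and 56.9 CPM in HCC827, against 0.593, 0.222, 0.279 and 0.05995 CPM in PC9, and IFITM1, a membrane protein that blocks viral entry, had 71.8, 38.0, 93.6 and 36.7 CPM in HCC827, against 0.699, 0.644, 0.260 and 0.403 CPM in PC9.

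Others were expressed in both lines and still differed widely. The dynamin-like GTPase MX1 had 416, 174, 445 and 171 CPM in HCC827, against 7.95, 7.30, 6.07 and 5.84 CPM in PC9, and OAS2, which makes the oligoadenylates that start RNA decay, had 288, 67.9, 244 and 69.1 CPM in HCC827, against 3.60, 2.18, 2.78 and 2.82 CPM in PC9. Their log2 differences were 5.31 ± 0.33 (adjusted p = 8.23e-05) and 5.59 ± 0.40 (adjusted p = 1.30e-04). The 4 tested members that did not pass were EIF2AK2, IFI35, LGALS3BP and MX2. EIF2AK2, the RNA-activated kinase PKR, had 223, 154, 206 and 153 CPM in HCC827, against 164, 122, 155 and 150.3 CPM in PC9 (adjusted p = 0.0912), and MX2, a GTPase that acts on HIV in human cells, had 79.5, 13.8, 48.7 and 12.5 CPM in HCC827, against 28.3, 20.4, 23.9 and 20.9 CPM in PC9 (adjusted p = 0.594). Their libraries overlap between the lines.

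**Figure D3:**
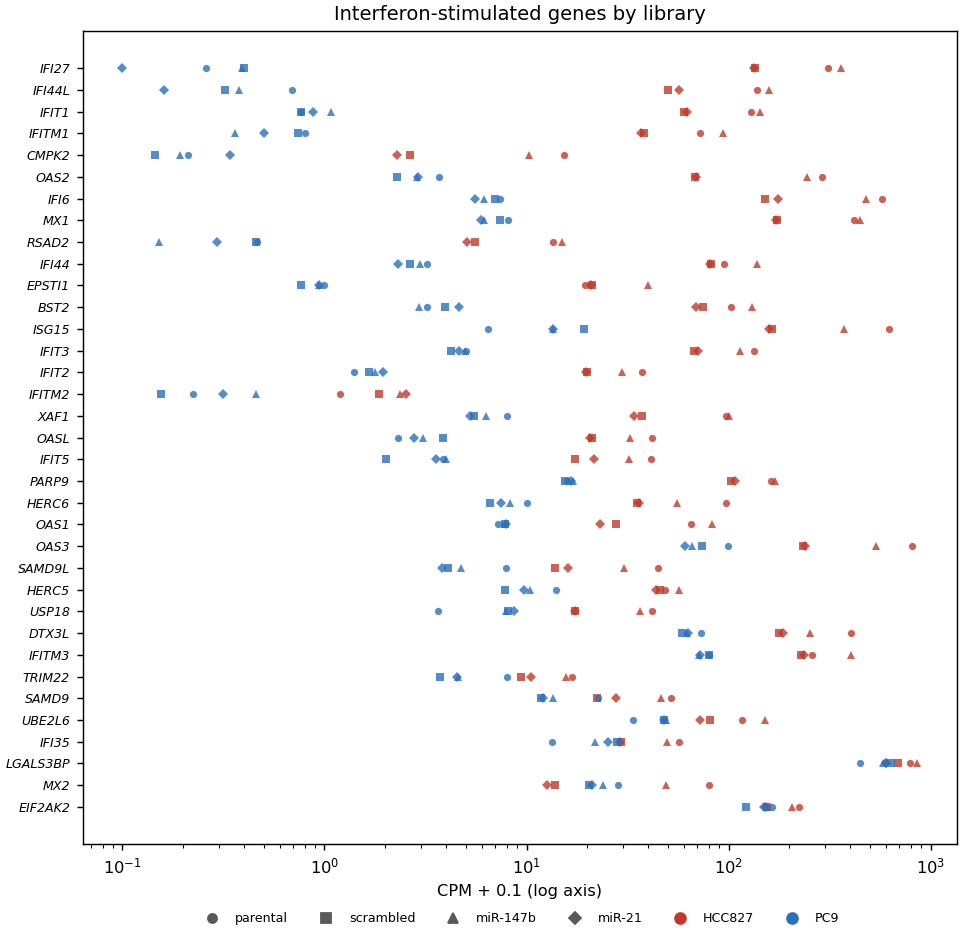
CPM + 0.1 on a log axis for the 35 tested interferon-stimulated genes, 1 row a gene, with HCC827 libraries in red, PC9 libraries in blue and a marker shape for each state. Red lies to the right of blue in the rows from IFI27 down to UBE2L6 except for SAMD9, where the lines touch, the bottom 4 rows (IFI35, LGALS3BP, MX2 and EIF2AK2) did not pass the test, and within HCC827 the parental and miR-147b points lie to the right of the scrambled and miR-21 points in most rows.

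Within HCC827 the states were not alike for these genes. The summed level of the list was 6405, 3071, 5937 and 3017 CPM in HCC827, against 1079, 1192, 1158 and 1166 CPM in PC9. In HCC827 the miR-147b library was above both the scrambled and the miR-21 library in 34 of 35 genes and the parental library in 33, while in PC9 these counts were 16 and 20. The median log2 difference from the scrambled library was 1.17 for parental, 0.89 for miR-147b and -0.02 for miR-21 cells in HCC827, and 0.21, 0.05 and -0.01 for the same states in PC9. Each state has 1 library, so these are values with no test, and they were looked at after the data were seen.

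Genes for interferon sensing and signalling differed in part. Whether they drive the interferon-stimulated genes or respond along with them was not tested. Among sensors of foreign or damaged nucleic acid 6 of 11 were higher in HCC827 and 1 was lower, beside 27.3% and 27.1% of all genes. DDX58, the RNA sensor RIG-I, had 68.4, 38.1, 62.0 and 44.9 CPM in HCC827, against 10.9, 6.05, 8.39 and 5.58 CPM in PC9. TMEM173, the adaptor STING, had 62.0, 57.9, 54.1 and 48.0 CPM in HCC827, against 15.1, 12.4, 11.6 and 10.6 CPM in PC9, whereas MB21D1, the DNA sensor cGAS that acts before STING, had 10.0, 16.7, 17.1 and 16.8 CPM in HCC827, against 43.3, 50.5, 62.2 and 65.7 CPM in PC9. The kinase TBK1, which both routes use, was higher by a log2 of 3.22 ± 0.24 (adjusted p = 1.50e-04), with 210.1, 249.5, 276 and 267 CPM in HCC827, against 38.9, 20.9, 27.2 and 20.6 CPM in PC9. MAVS, the adaptor of RIG-I, did not pass (adjusted p = 0.124), and IRF7, the factor that amplifies interferon production, was higher by 3.16 ± 0.36.

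Among receptors and signal transducers 10 of 15 were higher and 3 lower, beside 27.3% and 27.1% of all genes. By the second test 4 were higher and none lower, beside 10.9% and 10.0%. IRF9 and STAT2, which act together at these promoters, were higher. IRF9 had 116, 59.7, 88.1 and 61.2 CPM in HCC827, against 2.93, 2.69, 2.93 and 2.98 CPM in PC9, and STAT2 had 169.8, 87.3, 135 and 73.9 CPM in HCC827, against 14.7, 25.7, 26.4 and 23.7 CPM in PC9. No HCC827 library of these genes was within the range of PC9, and the log2 differences were 4.74 and 2.27. The receptor chain IFNAR2 was higher by 1.76. Lower in HCC827 were JAK2 (-0.84), the interferon gamma receptor chain IFNGR1 (-1.28) and the inhibitor SOCS1 (-1.31). Interferon genes themselves were hardly seen: of 7 measured, IFNE alone passed the filter on low counts, and it did not pass the test (adjusted p = 0.735).

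Of 15 genes of antigen presentation by MHC class I, 3 were higher and 2 lower, no more than the 27.3% and 27.1% of all genes. By the second test none was higher and 1 lower, beside 10.9% and 10.0%. Their median log2 difference was 1.27 in parental, -0.15 in scrambled, 0.74 in miR-147b and 0.01 in miR-21 cells. Without the miR-147b library of HCC827 the first counts were 1 and 1, and without parental PC9 the number lower was 5. NLRC5, the activator of class I genes, was higher by 1.75. B2M, the light chain of class I, had 598, 442, 678 and 422 CPM in HCC827, against 257, 468, 542 and 524 CPM in PC9, HLA-C had 383, 174, 266 and 159 CPM in HCC827, against 324, 538, 411 and 428 CPM in PC9, and neither passed. In the transduced states alone HLA-C was lower, by -1.27 (adjusted p = 9.24e-04). ERAP2, a peptidase that trims peptides for class I, was lower by -4.01 ± 0.13, with 8.87, 3.12, 3.99 and 3.61 CPM in HCC827, against 126, 52.9, 70.5 and 51.9 CPM in PC9. CD74, the invariant chain of class II, was also a PC9 gene, with 3.52, 2.46, 3.49 and 1.64 CPM in HCC827, against 235, 188, 184 and 181 CPM in PC9.

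**Figure D4:**
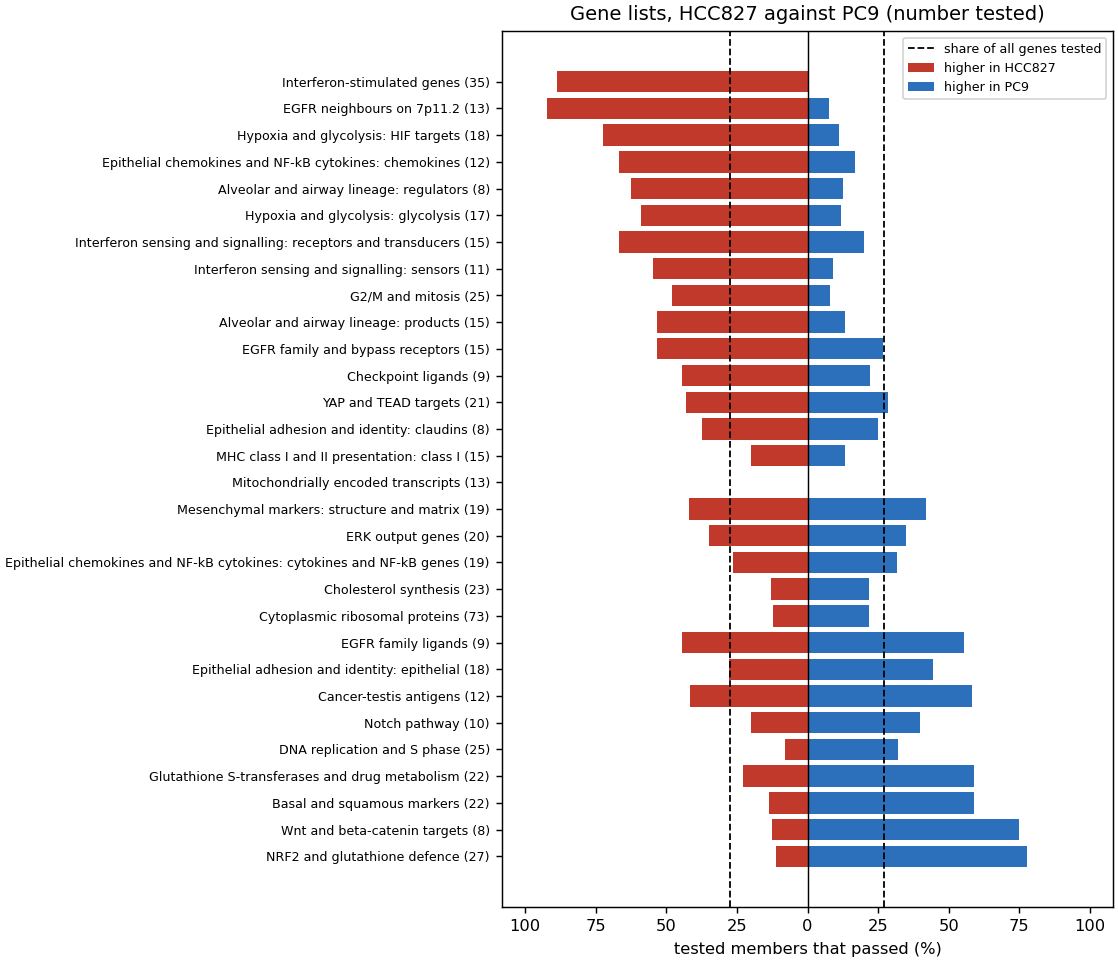
Percent of the tested members of each gene list that passed the test higher in HCC827 (red, to the left) and higher in PC9 (blue, to the right), with the number tested in brackets and dashed lines at the share of all genes tested, 27.3% and 27.1%. The EGFR neighbours (12 of 13) and the interferon-stimulated genes (31 of 35) reach farthest left, and the NRF2 targets (21 of 27) reach farthest right. The list of EGFR neighbours holds EGFR itself, so it is not the set of other gene entries counted in the text.

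The receptor kinases of the EGFR family and those known to bypass EGFR inhibitors split between the lines. Of 15 tested 8 were higher and 4 lower, beside 27.3% and 27.1% of all genes. ERBB2 had 166, 146, 153 and 121 CPM in HCC827, against 51.4, 69.5, 61.4 and 62.8 CPM in PC9 and a log2 difference of 1.21, and ERBB3, its kinase-poor partner, was lower by -0.58. MET was higher by 0.60 ± 0.13, with 605, 545, 556 and 610.4 CPM in HCC827, against 477, 316, 386 and 326 CPM in PC9. AXL, a kinase tied to drug tolerance in EGFR-mutant cells, was the receptor most apart, with 13.7, 20.7, 18.0 and 19.6 CPM in HCC827, against 429, 438, 446 and 442 CPM in PC9, a log2 difference of -4.66 ± 0.15 and adjusted p = 1.37e-05. DDR1, a collagen receptor, was lower by -1.56, and INSR and FGFR4 were higher by 1.73 and 1.61. Without the scrambled library of HCC827, 2 receptors were lower. In the transduced states ERBB3 still passed, at -0.56 (adjusted p = 0.0227). Over all 4 states it did not pass without the scrambled or miR-21 library of either line (adjusted p = 0.0757 to 0.127), nor did MET without the miR-21 library of PC9 (adjusted p = 0.0554).

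Every tested ligand of the family passed, 4 higher and 5 lower, beside 54.4% of all genes, so the lines differed in the level of each. A gene near 0 in PC9, as NRG1, enters the test through HCC827 alone, so its call follows largely from the filter. EREG (epiregulin) had 228, 251, 258 and 259.5 CPM in HCC827, against 6.40, 4.19, 4.76 and 4.74 CPM in PC9, with a log2 difference of 5.60 ± 0.18, and AREG (amphiregulin) had 71.3, 107, 142 and 86.5 CPM in HCC827, against 8.90, 8.44, 9.64 and 8.69 CPM in PC9. NRG1, the ligand of ERBB3, had 40.1, 106, 87.4 and 121 CPM in HCC827, against 0, 0, 0 and 0.05995 CPM in PC9, so PC9 held 1 count in all and no fold is given. HBEGF had 9.81, 9.30, 8.89 and 7.37 CPM in HCC827, against 124, 96.0, 91.3 and 88.1 CPM in PC9, a log2 difference of -3.53 ± 0.13 (adjusted p = 1.82e-05), and TGFA had 14.0, 21.1, 25.7 and 16.8 CPM in HCC827, against 78.2, 66.7, 83.4 and 81.9 CPM in PC9. EREG, AREG, NRG1 and BTC were thus higher in HCC827, and HBEGF and TGFA, with EGF, EPGN and NRG4 at under 6 CPM, higher in PC9. AREG, HBEGF and TGFA were measured in every library of both lines. Genes that ERK signalling turns on were split evenly, with 7 of 20 higher and 7 lower, beside 27.3% and 27.1% of all genes.

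Genes of alveolar and airway lineage were more often higher than lower in HCC827. Of 8 tested regulators 5 were higher and 1 lower, beside 27.3% and 27.1% of all genes, and their median log2 difference was 3.18. NKX2-1 had 86.5, 92.4, 95.5 and 86.7 CPM in HCC827, against 0, 0, 0.0464 and 0.120 CPM in PC9, which is 3 counts or fewer over all of PC9. SOX2, a regulator of airway cells, had 22.95, 11.1, 26.1 and 4.16 CPM in HCC827, against 0.0371, 0, 0 and 0.05995 CPM in PC9. GATA6 was the regulator lower in HCC827, by -1.20. Among products 8 of 15 tested were higher and 2 lower. Past 2-fold 4 regulators and 6 products were higher, and none and 2 lower, beside 10.9% higher and 10.0% lower of all genes. NAPSA, an aspartic protease of alveolar type II cells, had 197, 119.7, 119.9 and 82.4 CPM in HCC827, against 0.148, 0.133, 0.0927 and 0.180 CPM in PC9, and MUC5B, a mucin of airway secretory cells, had 178, 199.9, 151 and 166 CPM in HCC827, against 2.11, 0.888, 1.02 and 0.979 CPM in PC9. The surfactant protein SFTPB had 9.60, 22.3, 15.5 and 7.63 CPM in HCC827, against 0.323, 0.354, 0.293 and 0.208 CPM in PC9, and SCGB3A2 and the lipid transporter ABCA3 were higher by 3.05 and 1.94.

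Basal and squamous genes were mostly lower in HCC827: 13 of 22 tested genes were lower in HCC827 and 3 higher, beside 27.1% and 27.3% of all genes. Their median was -1.34, and past 2-fold 9 were lower and 2 higher, beside 10.0% and 10.9% of all genes. KRT5, a keratin of basal cells, had 0.302, 0.0492, 0.135 and 0 CPM in HCC827, against 347, 105, 115 and 109.7 CPM in PC9. KRT6A had 16.6, 1.61, 20.2 and 2.44 CPM in HCC827, against 572, 424, 382 and 426 CPM in PC9, and KRT17 had 1.58, 0.202, 0.770 and 0.326 CPM in HCC827, against 72.0, 55.7, 50.8 and 65.3 CPM in PC9. KRT6A and KRT6B are near-identical, so their counts cannot be split with certainty. The integrin chain ITGA6 was lower by -2.17 ± 0.12. The basal list did not move as 1 block, since DSC3 (7.19), COL17A1 (2.05) and TP63 (1.79, adjusted p = 0.0239), the master factor of basal cells, were higher in HCC827. TP63 had 4.72, 3.17, 18.7 and 3.87 CPM in HCC827, against 2.78, 1.14, 1.48 and 1.32 CPM in PC9, so the miR-147b library of HCC827 stood far above the others. Its call is not firm: without the scrambled or the miR-21 library of either line its adjusted p lay between 0.0561 and 0.0588, and without the miR-147b library of HCC827 its difference was 1.21 (adjusted p = 0.0359).

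Both lines read as epithelial. CDH1 (E-cadherin) had 399, 334, 438 and 230.4 CPM in HCC827, against 132, 149, 153 and 155 CPM in PC9 and EPCAM had 265, 218, 212 and 136 CPM in HCC827, against 440.4, 259, 328 and 299.7 CPM in PC9, and over the epithelial list 5 of 18 were higher and 8 lower. Over the simple epithelial keratins 1 of 7 tested was higher and 2 lower. For every list in this paragraph the shares of all genes were 27.3% and 27.1%. Of these keratins none was lower without the scrambled library of HCC827, and 4 without parental PC9. Markers of other cell types were few. Of leukocyte markers 3 of 15 passed the filter on low counts, 1 higher and 2 lower, with summed levels of 72.1 to 121 CPM in HCC827 and 44.6 to 49.9 CPM in PC9, most of it CD68. The defining markers PTPRC, CD3E and TYROBP averaged under 0.2 CPM in both lines. Of fibroblast and endothelial markers 4 of 13 passed the filter, 1 higher and 1 lower, with sums of 20.1 to 24.5 CPM in HCC827 and 59.4 to 68.5 CPM in PC9, most of it in PC9 CDH5, the cadherin of endothelium, with 0.572, 0.145, 0.168 and 0.0495 CPM in HCC827, against 37.9, 47.2, 55.3 and 54.0 CPM in PC9. DCN and LUM averaged under 0.3 CPM. Of neuroendocrine markers 5 of 14 passed the filter, 2 higher and 3 lower, with sums of 95.2 to 150.3 CPM in HCC827 and 740 to 1216 CPM in PC9. A marker near 0 in a line, as UCHL1 in HCC827, enters the test through the other line alone. Nearly all of the PC9 sum was UCHL1, a ubiquitin hydrolase, with 0.396, 0.193, 0.269 and 0.445 CPM in HCC827, against 702, 1174, 1046 and 1082 CPM in PC9, and INSM1 and GRP were at 0 in both lines. The part of other cells in the results was not tested.

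Targets of NRF2, the factor that guards cells against oxidants, were mostly lower in HCC827. Of 27 tested 21 were lower in HCC827 and 3 higher, beside 27.1% and 27.3% of all genes. Their median log2 difference was -0.86, and the counts were 22 and 3 in the transduced states alone. Leaving out the miR-147b library of HCC827 brought the count of lower genes to 14. By the second test 9 were lower by more than 2-fold and 1 higher, beside 10.0% and 10.9% of all genes. The aldo-keto reductase AKR1C1 had 1.17, 1.495, 3.40 and 1.56 CPM in HCC827, against 317, 597, 529.9 and 562 CPM in PC9, and AKR1C3 had 26.7, 60.9, 64.3 and 69.4 CPM in HCC827, against 365, 601, 601 and 584 CPM in PC9. AKR1C1 and AKR1C2 are near-identical and their counts cannot be split with certainty. AKR1B10, a related reductase, was lower by -4.96 ± 0.22. The pentose phosphate enzyme PGD was lower by -1.51 ± 0.12, and SLC7A11, the cystine importer, by -2.84 ± 0.23. NFE2L2 itself, the gene of NRF2, and its inhibitor KEAP1 were both lower, by -0.34 and -1.31. NQO1, a textbook target, was lower by just -0.41, and HMOX1 was higher by 1.82. The calls of these 2 genes, NFE2L2 and NQO1, are not firm: NFE2L2 did not pass when any 1 of the 6 transduced libraries was left out (adjusted p = 0.0886 to 0.142), and NQO1 when any 1 of 5 of these was left out (adjusted p = 0.0520 to 0.10). The letters of the antioxidant response element (TGAC, any 3 bases and GCA, or the reverse complement) were in 3 of 21 promoters of the list (14.3%), against 1118 of 35116 (3.18%).

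Enzymes that handle drugs and foreign compounds leaned the same way, with 13 of 22 tested lower in HCC827 and 5 higher, 9 and 4 of them past 2-fold. The shares of all genes were 27.1% lower and 27.3% higher, and past 2-fold 10.0% and 10.9%. ALDH3A1, an aldehyde dehydrogenase, had 0.264, 0, 0 and 0 CPM in HCC827, against 79.2, 248, 217 and 249.5 CPM in PC9. UGT1A6 had 0, 0.0708, 0.2004 and 0.00594 CPM in HCC827, against 168, 158, 184 and 155 CPM in PC9, though members of the UGT1A cluster share exons. CYP4F11 had 0.409, 0.0964, 0.474 and 0.149 CPM in HCC827, against 123, 104, 96.3 and 110.4 CPM in PC9, and GSTM3 was lower by -4.53 ± 0.29. The other way stood CYP1A1, the target of the aryl hydrocarbon receptor, with 35.4, 16.2, 26.5 and 9.01 CPM in HCC827, against 0.111, 0.222, 0.0927 and 0.180 CPM in PC9, and GSTT1, with 11.01, 17.7, 16.97 and 14.8 CPM in HCC827, against 0.0445, 0.0515, 0.0556 and 0.246 CPM in PC9. PC9 libraries held under 1 CPM of both.

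Chemokines were mostly HCC827 genes, with 8 of 12 higher and 2 lower, 6 and 1 of them past 2-fold, and a median of 1.91. The shares of all genes were 27.3% and 27.1%, and past 2-fold 10.9% and 10.0%. CXCL5, which draws neutrophils, had 206, 236, 532 and 335 CPM in HCC827, against 2.20, 1.89, 3.29 and 3.21 CPM in PC9, and CX3CL1 (fractalkine) had 57.5, 35.3, 51.4 and 31.5 CPM in HCC827, against 0.359, 0.332, 0.338 and 0.05995 CPM in PC9. CXCL16 was lower by -1.91 ± 0.32. Of cytokines and NF-kB genes 5 of 19 were higher and 6 lower, near the shares of all genes (27.3% and 27.1%), among them the NF-kB inhibitor TNFAIP3, lower by -1.48 ± 0.15. Without the miR-147b library of HCC827, 2 cytokine and NF-kB genes were higher.

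Mesenchymal genes were divided. Of 19 genes of structure and matrix 8 were higher and 8 lower, beside 27.3% and 27.1% of all genes, so the lines differed in which genes were higher. HCC827 had TNC (tenascin C), with 1200, 619.8, 594 and 657 CPM in HCC827, against 22.8, 15.98, 16.8 and 14.3 CPM in PC9, COL4A2, with 72.5, 112, 93.3 and 102 CPM in HCC827, against 0.260, 0.0888, 0.232 and 0.120 CPM in PC9, and VIM, with 404, 583, 458 and 694 CPM in HCC827, against 237, 92.5, 87.6 and 66.2 CPM in PC9. PC9 had SPARC, with 0.440, 1.01, 1.62 and 1.24 CPM in HCC827, against 126, 54.9, 52.9 and 51.4 CPM in PC9, and COL5A1, lower in HCC827 by -3.15 ± 0.29. Of 6 tested mesenchymal regulators 2 were higher in HCC827 and 2 lower, with a median of -0.23. Among them ZEB1, a repressor of E-cadherin, was higher by 3.48 ± 0.35 in HCC827, which also had more CDH1. CDH2 (N-cadherin) had 0.572, 11.4, 14.4 and 26.4 CPM in HCC827, against 29.3, 12.1, 15.97 and 13.3 CPM in PC9 and did not pass (adjusted p = 0.566). It was lower in HCC827 in 3 of the 4 states and higher in miR-21 cells, with by far the widest gap in parental cells. FN1 (fibronectin) did not pass either (adjusted p = 0.0722), while in the transduced states it was lower by a log2 difference of -0.41 (adjusted p = 0.00202).

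Genes of the hypoxia factor HIF were higher in HCC827 in 13 of 18 tested and lower in 2, with a median of 1.23, and glycolysis genes in 10 of 17 and 2. The shares of all genes were 27.3% and 27.1%, also for the other lists of this paragraph. Past 2-fold the counts were 6 and 2 for HIF targets, beside 10.9% and 10.0% of all genes, and 2 and 0 for glycolysis. BNIP3, a mitophagy receptor, had 290.4, 167, 183 and 229 CPM in HCC827, against 22.7, 21.3, 22.8 and 20.1 CPM in PC9. EGLN3, the oxygen-sensing hydroxylase, had 131, 40.2, 48.8 and 37.8 CPM in HCC827, against 12.6, 12.9, 12.9 and 12.2 CPM in PC9, and PGK1 of glycolysis had 2342, 1102, 1234 and 1443 CPM in HCC827, against 373, 639, 545 and 571 CPM in PC9. EGLN3 and PGK1 were most apart in parental cells. LOX, which crosslinks collagen, and SLC2A3, a glucose transporter, were lower, by -2.42 and -2.24. Of the cell cycle lists, 12 of 25 genes of G2/M and mitosis were higher and 2 lower, and 2 of 25 of DNA replication were higher and 8 lower, while past 2-fold 1 mitotic gene was higher and 1 replication gene lower. Of YAP targets 9 of 21 were higher and 6 lower, of Wnt targets 1 of 8 and 6, of Notch genes 2 of 10 and 4, and of checkpoint ligands 4 of 9 and 2. These smaller counts move with single libraries. With 1 library left out, mitotic genes higher in HCC827 numbered 8 (without miR-21 PC9) to 16 (without parental PC9), and replication genes lower 5 (without miR-147b HCC827) to 14 (without parental PC9). Without miR-147b HCC827 YAP targets lower in HCC827 were 3, and checkpoint ligands higher in HCC827 were 1.

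Cancer-testis antigens, genes of the germ line that tumours switch on, were different ones in each line: 12 of 30 were tested and all 12 passed, 5 higher and 7 lower. Of all genes tested 54.4% passed. Genes near 0 in a line, as those below, enter the test through the other line alone, so their calls follow largely from the filter. PRAME had 6.68, 14.6, 17.8 and 13.7 CPM in HCC827, against 0, 0, 0 and 0 CPM in PC9, while MAGEA3 had 1.31, 0, 0 and 0.0495 CPM in HCC827, against 127, 169, 173 and 188 CPM in PC9 and MAGEC1 had 0.0880, 0, 0 and 0 CPM in HCC827, against 48.9, 34.9, 35.2 and 34.7 CPM in PC9. MAGEB2 was seen in HCC827, with 1.19, 8.14, 6.87 and 5.54 CPM in HCC827, against 0, 0, 0 and 0.05995 CPM in PC9. MAGEA3 and MAGEA6 are near-identical and their counts may be shared.

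Genes seen in 1 line alone, under 0.1 CPM in every library of the other and at least 5 CPM in every library of their own, numbered 61 for HCC827 and 45 for PC9. In HCC827 those with the highest mean CPM, not scaled by gene length, included TM4SF18, of the L6 family of membrane proteins, with 131, 159, 140.1 and 173 CPM in HCC827, against 0.0371, 0.0444, 0.0464 and 0.05995 CPM in PC9, DSCAML1, a neural adhesion protein, with 69.5, 84.5, 78.9 and 77.8 CPM in HCC827, against 0, 0, 0 and 0 CPM in PC9, and ATP10A, a lipid flippase, with 80.6, 79.2, 70.7 and 77.8 CPM in HCC827, against 0, 0, 0 and 0 CPM in PC9. CELF2, ZNF618 and NRG1 were of the same kind. FAM203A, KRT16P1 and RPS4XP22 met the rule too and have near copies elsewhere. In PC9 they included SORCS2, a sorting receptor, with 0, 0, 0.0337 and 0.0990 CPM in HCC827, against 73.5, 79.2, 77.3 and 75.2 CPM in PC9, the guidance receptor ROBO1, with 0, 0.0549, 0.0269 and 0 CPM in HCC827, against 62.7, 36.1, 33.4 and 35.6 CPM in PC9, and the mucosal protein DMBT1, with 0, 0, 0.0674 and 0.0990 CPM in HCC827, against 17.4, 41.7, 35.2 and 48.9 CPM in PC9. EPHX3, MAGEC1, CHRDL1, EPHB6 and PALD1 followed, with MAGEA2, which has near copies. SULF2, a sulfatase that edits heparan sulfate, had 0.0440, 0.0964, 0.101 and 0.0495 CPM in HCC827, against 558, 464, 472 and 464 CPM in PC9 and missed the rule by 1 library, and it is named after its values were seen.

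Among genes measured in both lines, those farthest apart were CFI, complement factor I, with 58.5, 128, 126 and 127 CPM in HCC827, against 0.858, 0.326, 0.613 and 0.582 CPM in PC9, and ANO1, a chloride channel, with 0.484, 1.16, 1.92 and 0.594 CPM in HCC827, against 771, 691, 683 and 709.6 CPM in PC9. Beside IFIT1, IFITM1, MUC5B and CXCL5 the genes farthest toward HCC827 were the metalloprotease MMP24 (6.54), the kinase NRK (6.62), BASP1 (6.67), FAM101B (5.77) and the pseudogene RPL23AP79, whose counts can come from its parent gene. Beside AKR1C1 and AKR1C2 those farthest toward PC9 were TRIM29 (-8.85), the inflammasome protein NLRP2 (-8.16), the peroxidasin PXDN (-8.05), the activin subunit INHBA (-7.44), CMBL (-7.24), PSCA (-7.11) and calretinin CALB2 (-6.98). PC9ER, a T790M-positive line known as a derivative of PC9, gave a reading outside the comparison. Over its 3 libraries, knockdowns and their control, it was nearer to PC9 than to HCC827 in 39 of these 40 genes of both rules.

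**Figure D5:**
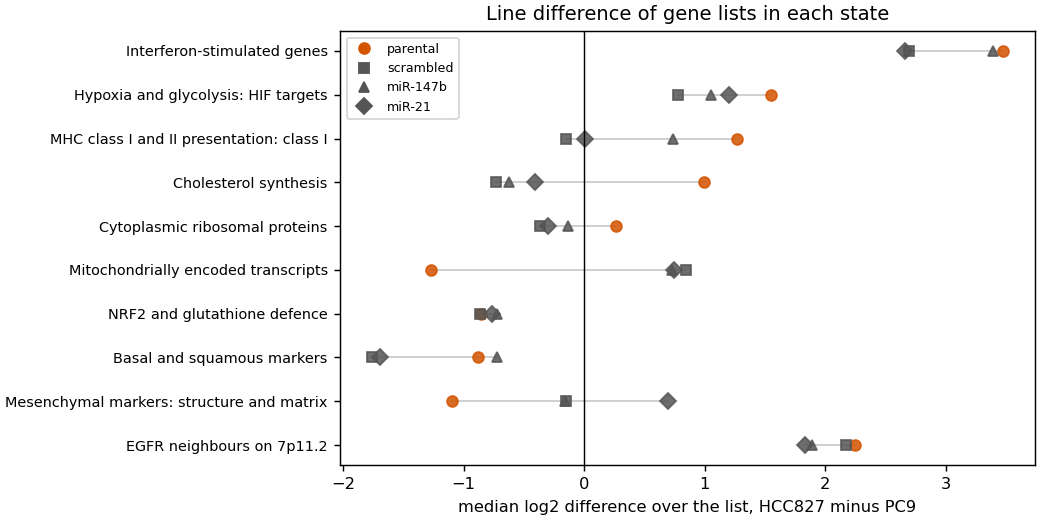
Median log2 difference of HCC827 over PC9 (horizontal axis) for 10 gene lists (rows) in each of the 4 drug-free states, with parental cells in orange and transduced cells in grey. Interferon-stimulated genes and EGFR neighbours, a list that holds EGFR itself, stay above 0 in every state. The mitochondrially encoded transcripts lie at -1.27 in parental cells and at 0.85, 0.73 and 0.75 in scrambled, miR-147b and miR-21 cells.

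The line difference was not the same in parental and in transduced cells. The difference in parental cells minus that in transduced cells passed in 3869 of 17008 genes (22.7%), 1803 positive (10.6%) and 2066 negative (12.1%). Leaving out the scrambled or miR-21 library of HCC827 gave 2233 and 2026 genes, and leaving out the scrambled or miR-21 library of PC9 gave 1739 and 1882. With 1 parental library a line, this compares single libraries, and the mark of the parental culture, its deposited table and the lack of virus cannot be told apart.

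The mitochondrially encoded transcripts of the respiratory chain changed sides: all 13 passed, all lower, with a median of -1.85. Their summed level was 19690, 25380, 23830 and 24060 CPM in HCC827, against 36110, 13470, 14070 and 14970 CPM in PC9, so the parental PC9 library stood highest. MT-ND4 had 1908, 2367, 2172 and 2121 CPM in HCC827, against 4658, 1440, 1530 and 1546 CPM in PC9. None of the 13 passed over all 4 states, while in the transduced states alone all 13 were higher in HCC827, with a median of 0.81. MT-CO1, a core subunit of cytochrome oxidase, had 7382, 8725, 7689 and 8271 CPM in HCC827, against 10340, 4874, 4865 and 5291 CPM in PC9.

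Cholesterol synthesis moved the other way: 18 of 23 genes had a more positive difference in parental cells and none a more negative one, with a median of 1.58. The median line difference was 1.00 in parental cells, and -0.73, -0.63 and -0.41 in scrambled, miR-147b and miR-21 cells. HIF targets gave 10 of 18 and MHC class I genes 9 of 15 with a more positive difference, and neither list a negative one. The class I count was 4 without the scrambled library of PC9. Of 73 ribosomal protein genes 32 had a more positive and 9 a more negative difference, beside 10.6% and 12.1% of all genes. The more negative count is thus near the share of all genes. More positive were 17 without the miR-21 library of PC9, and more negative were 2 without that of HCC827.

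Among single genes, the largest shifts were partly in genes with 0 counts in 1 state. WDR13 had 23.3, 0.0964, 0 and 0.0990 CPM in HCC827, against 21.9, 40.8, 31.4 and 33.3 CPM in PC9, a shift of 9.20 (adjusted p = 0.00112), and the pseudogene PPIAP22 had 0, 132, 90.4 and 119.9 CPM in HCC827, against 77.9, 175, 113 and 102 CPM in PC9, a shift of -13.60. Reads of PPIAP22 cannot be told from its parent gene. DEFB4A, a defensin with a near-identical copy, had 46.2, 1.38, 7.44 and 2.12 CPM in HCC827, against 0, 0, 0.278 and 0 CPM in PC9. CDK4 and PIP4K2C were farther apart in parental cells, by 1.35 (adjusted p = 0.00784) and 1.29 (adjusted p = 0.00819), while for EGFR the shift was -0.28 (adjusted p = 0.165).

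The line difference also differed between drug-tolerant and drug-free cells, and in some groups of genes its sign turned. The line difference in drug-tolerant cells minus that in drug-free cells passed in 1325 of 17252 genes (7.68%), 533 positive (3.09%) and 792 negative (4.59%). The drug-free side of this comparison is the 8 libraries above, and the tolerant libraries are in the same deposited table as the parental ones. Most of the drug-free libraries are of transduced cells, and the tolerant ones are not labelled as transduced. This fit therefore mixes drug with virus, puromycin and table, which it cannot tell apart. Leaving out 1 of the 12 libraries moved this count by over 1.5 times each time, to as few as 266 genes (gefitinib-tolerant HCC827 left out) and as many as 3626 (parental PC9 left out).

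Mitotic genes were far lower in tolerant HCC827 than in tolerant PC9, whereas in drug-free cells they leaned toward HCC827. Their drug-free median line difference was 0.28 in parental, 0.45 in scrambled, 0.38 in miR-147b and 0.54 in miR-21 cells. Of 25 genes 24 had a more negative difference in tolerant cells, with a median change of -3.11 beside a drug-free median difference of 0.38, and 17 at the fewest when 1 library was left out. Over all genes tested 4.59% had a more negative difference and 3.09% a more positive one, which holds for each list of this paragraph. In gefitinib- and osimertinib-tolerant cells their summed level was 426 and 631 CPM in HCC827, against 2786 and 3076 CPM in PC9, and in drug-free cells 4605 to 5456 CPM in HCC827, against 2940 to 5083 CPM in PC9. Genes of DNA replication followed with 20 of 25 (median change -1.57, drug-free median difference -0.19), and with 7 when the gefitinib-tolerant library of HCC827 was left out. Of the 35 interferon-stimulated genes 11 had a more negative difference and none a more positive one, beside 4.59% and 3.09% of all genes. Without the gefitinib-tolerant library of HCC827, 3 had a more negative one. IFIT1 had, in gefitinib- and osimertinib-tolerant cells, 35.3 and 48.2 CPM in HCC827, against 3.12 and 3.65 CPM in PC9, a change of -3.28 (adjusted p = 0.00266). Its level was thus lower in tolerant than in drug-free HCC827 and higher in tolerant than in drug-free PC9, and the lines remained apart. ISG15 had 80.2 and 96.9 CPM in HCC827, against 12.9 and 15.4 CPM in PC9 in tolerant cells, and its change did not pass (adjusted p = 0.275).

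EGFR had 4672 and 4392 CPM in HCC827, against 938 and 769.8 CPM in PC9 in tolerant cells and its line difference changed by -0.32, which did not pass (adjusted p = 0.356). HBEGF changed sides, with 204 and 279 CPM in HCC827, against 47.6 and 16.8 CPM in PC9 in tolerant cells, a change of 6.61 ± 0.52 (adjusted p = 9.46e-04). Both drug-tolerant HCC827 libraries were thus above both of PC9 for a ligand that drug-free HCC827 had little of. MET also changed sides, with 161 and 104 CPM in HCC827, against 649 and 791 CPM in PC9 and a change of -3.06 (adjusted p = 0.00217). AXL stayed a PC9 gene, with 16 and 13.9 CPM in HCC827, against 309 and 469 CPM in PC9. TNC had 27.0 and 30.6 CPM in HCC827, against 18.7 and 22.8 CPM in PC9, a change of -4.89 (adjusted p = 6.51e-04), so the drug-free difference in this matrix protein was nearly gone. MUC5B had 1.85 and 2.91 CPM in HCC827, against 7.60 and 0.0529 CPM in PC9, a change of -7.07 (adjusted p = 0.0401). The MUC5B change did not pass when any 1 of 8 of the 12 libraries was left out, and was -1.43 (adjusted p = 0.769) without gefitinib-tolerant PC9.

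The largest positive changes were CXCR7, KRT17, FOSB, MMP2 and NPR1, of which MMP2 did not pass when any 1 of 8 libraries was left out. FOSB, an immediate early transcription factor, had 276 and 195 CPM in HCC827, against 2.18 and 3.67 CPM in PC9 in tolerant cells and 2.07, 0.481, 0.493 and 0.502 CPM in HCC827, against 1.41, 1.21, 1.11 and 1.26 CPM in PC9 in drug-free cells. In drug-free cells FOSB did not pass (adjusted p = 0.166), while in the transduced states alone it was lower in HCC827, by -1.29 (adjusted p = 0.0119). The tolerant HCC827 libraries were far above those of PC9. KRT17 had 80.6 and 77.7 CPM in HCC827, against 12.5 and 137 CPM in PC9 in tolerant cells, and CXCR7, a chemokine scavenging receptor, had 12.2 and 18.9 CPM in HCC827, against 27.7 and 90.0 CPM in PC9. The largest negative changes with MUC5B were CYP26A1, which degrades retinoic acid, CCNA1 and PPFIA4, and the pseudogene KRT16P2, and CCNA1 did not pass when any 1 of 10 libraries was left out. CYP26A1 had 2.66 and 2.83 CPM in HCC827, against 2.52 and 4.71 CPM in PC9 in tolerant cells and 13.8, 11.8, 8.66 and 9.95 CPM in HCC827, against 0.148, 0.0888, 0.0464 and 0.300 CPM in PC9 in drug-free cells. HIF targets had 10 of 18 more negative differences, beside 4.59% of all genes, but 1 when the miR-147b library of HCC827 was left out. Glycolysis genes, with a drug-free median difference of 0.57 and a median change of -1.43, had 10 of 17, beside the same share of all genes. They had 3 when the gefitinib-tolerant library of HCC827 was left out.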

How the data were processed

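Poly(A) RNA of 21 libraries was sequenced, and the 8 drug-free libraries of HCC827 and PC9 were compared, with 4 drug-tolerant ones used in 1 further comparison. Each of 3 tables that the authors deposited lists genes with their RSEM expected counts, made with Bowtie2 on GRCh37, per the submitters' processing notes, with versions and annotation not given in the sources used here. A deposited summary gives 18987767 to 33129732 reads in the 8 libraries and the percent of bases with a quality of 30 or more (96.7 to 97.1), and the expected counts came to 85.4% to 91.2% of the reads. The 5 columns that 2 tables share were identical, and none of the 210 pairs of libraries was identical.

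The expected counts (64.3% of nonzero values not whole, to a tolerance of 0.001) of 56632 genes were rounded. Line was tested with edgeR 4.0.16 (R 4.3.3) by its quasi-likelihood test, with TMM scaling, a filter on low counts by line, the state as a block and Benjamini-Hochberg adjustment over all genes tested. The second test was edgeR's glmTreat against a log2 difference of 1. State pairs the libraries by their labels. The deviations of same-state libraries from their line's mean correlated across genes at 0.079 (parental), -0.022 (scrambled), 0.108 (miR-147b) and -0.008 (miR-21). A pair of further fits tested whether the line difference changed between parental and transduced or between drug-tolerant and drug-free cells. Differences of single states were taken on log2 CPM with a prior count of 2. The main line test and the pair of further fits were tested on simulated data that held no difference between states. The second test and the alternatives were not. Where a line held 3 counts or fewer over its 4 libraries, no fold is given. Where it held few more, the fitted value depends on the prior count.

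Named genes were, beside EGFR and ISG15, the 10 largest differences in each direction with at least 10 CPM in the higher line and 0.5 in the lower, the 10 highest genes of 1 line in each direction, members of the lists (up to 6 that passed and 3 that did not), and the 5 largest changes in each direction of the 2 further fits. Some genes that meet these rules are not reported here. The comparison, the genes and the lists were chosen with earlier results of these data known. Alternatives were DESeq2 size factors, no filter, DESeq2 1.42.0, voom of limma 3.58.1, no block, other sets of states and leaving out each library. Positions are of GENCODE 29, matched by Ensembl identifier for 50276 genes. Libraries of other cell lines were not analysed here, apart from the 3 of PC9ER. Tables and figures were made with Python 3.11.15, pandas 2.3.3, numpy 2.4.6 and matplotlib 3.10.9.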

Additional observations from a re-analysis of the deposited data

Results flagged for a closer look

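In a group of 4 libraries, 1 library stood far from the other 3 in 25 of 176 groups looked at, and in 23 of them it was the parental one. Chance alone gives such a gap in about 1 in 20 groups. Some of the genes were named for their change in parental cells itself, and genes that move together are not independent.

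In HCC827 the parental library was highest, with its CPM given, for CDK4 (8788), PIP4K2C (2209), TNC (1200), EGLN3 (131.4), DEFB4A (46.22), WDR13 (23.26), ERAP2 (8.874), FOSB (2.067) and MAGEA3 (1.308). It was lowest for CFI (58.49 CPM) and MB21D1 (10.02 CPM). In PC9 the parental library was highest for the mitochondrial transcripts MT-CO1 (10340 CPM) and MT-ND4 (4658 CPM), and for EGFR (1178), SULF2 (557.8), KRT5 (347.4), VIM (237.4), CD74 (234.6), SPARC (126.3), ROBO1 (62.72), MAGEC1 (48.94) and MUC5B (2.113 CPM). It was lowest for AKR1C3 (364.6 CPM). The other 2 gaps were TP63 in the miR-147b library of HCC827, highest at 18.68 CPM, and CX3CL1 in the miR-21 library of PC9, lowest at 0.05995 CPM, which is 1 count.

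The line difference was itself different between parental and transduced cells in 3869 genes, and between drug-tolerant and drug-free cells in 1325, by edgeR's test of that change. The largest shifts of parental over transduced cells were 9.20 for WDR13, 7.79 for DEFB4A, 7.34 for TRBC2 and 7.16 for ALDH3A1, and -13.60 for PPIAP22 and -11.67 for FNTA, on the log2 scale. For most of these a line has libraries at or near 0 counts, so the size rests on the prior count. DEFB4A fell to 4.74 with no call without the miR-147b library of PC9. The largest changes of drug-tolerant over drug-free cells were 7.43 for KRT17, 7.37 for CXCR7, 7.03 for FOSB, 6.88 for MMP2 and 6.82 for NPR1, and -7.07 for MUC5B, -6.58 for CYP26A1, -5.15 for CCNA1 and -5.06 for PPFIA4. MMP2, MUC5B and CCNA1 did not keep their calls when single libraries were left out.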

How the results depend on the processing

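The count of genes that differed between HCC827 and PC9, 9253, came to 9230 with DESeq2 size factors, 9687 without the filter, 9542 with DESeq2, 9393 with voom, 11734 in the transduced states alone, 4491 in the parental and scrambled states alone and 3555 by glmTreat, with 6621 to 11835 when 1 library was left out. Without the replicate block that pairs libraries by state it was 9689. For the difference between parental and transduced cells 3869 became 3905, 5060, 3469 and 4126 under the first 4 settings in that order, and 1739 to 5802 when 1 transduced library was left out. A parental library cannot be left out there, as none would remain in its line. For the change between drug-tolerant and drug-free cells 1325 became 1321, 1649, 2229 and 1501, and 266 to 3626 with 1 library left out. Over the named genes 28 of 52 changes between parental and transduced cells and 15 of 40 between drug-tolerant and drug-free cells kept their calls whichever library was left out.

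Signs of some genes that had not passed turned. CDH2 (-0.72 over all states) was 0.212 in the transduced states alone and -1.470 to 0.214 with 1 library left out. MX2 was -0.091 and -0.095 to 0.653, and B2M -0.061 and -0.067 to 0.458, in the same settings. MT-ND4 was -0.332 in the parental and scrambled states alone, -0.137 without the replicate block, and -0.133 to 0.523 with 1 library left out. The cause was not tested. Of the values of named genes under an alternative, 2875 kept direction and call, 125 lost the call, 34 gained one and 17 reversed. Of the list counts 206 moved by over 1.5 times and 1042 did not. The median log2 difference within 1 Mb of EGFR was 1.91, and 1.91 within 5 Mb. Counts per list with 1 library left out, and single genes in both further fits, were looked at after the data were seen.

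With 1 library for each line and state, neither the drug-free states nor cultures can be tested singly, and genes at few counts in 1 line have a poorly known fold.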
